A study of Homo sapiens with 9 samples.

Results

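The mitochondrial ribosomal protein genes of MEG-01 cells were taken as every gene whose symbol is MRPS or MRPL with a number and, in some, a closing letter, pseudogenes left out. The rule found 78 genes among the 63241 in both deposited tables, 29 named for the small subunit (MRPS) and 49 for the large subunit (MRPL). All 78 passed the filter on low counts. RNA was measured by poly(A)-selected sequencing in 9 libraries of MEG-01, a human megakaryoblast line from the blast crisis of chronic myeloid leukaemia. The groups were MEG-01 cells given As2S2 (arsenic disulfide), MEG-01 cells given PMA (a phorbol ester that activates protein kinase C and drives this line towards megakaryocytes) and untreated MEG-01 controls, with 3 libraries each. The labels give no dose and no time. They do not say if replicates were grown apart, and the p-values here cover the spread among these 9 samples alone, which may be technical.

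The mitochondrial ribosome sits in the mitochondrial matrix and translates the 13 mRNAs of the mitochondrial genome, all of which encode subunits of the respiratory chain and ATP synthase. Its rRNAs come from the mitochondrial genome, whereas its proteins are encoded in the nucleus, made on cytosolic ribosomes and imported. Some of the proteins are counterparts of bacterial ribosomal proteins and others are found only in mitochondrial ribosomes. By the structure of the human particle, MRPS18A and MRPS30 sit in the large subunit in spite of their names. MRPS36 sits in neither subunit and is known as a protein of the 2-oxoglutarate dehydrogenase complex. Of the 78 genes, 46 were of the bacterial type and 31 were specific to mitochondria, with MRPS36 in neither class.

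Total counts, in units of 1e6, ran from 18.2 to 20.37 per library, and the lowest count of any member in a library was 113, for MRPL1. The megakaryoblast markers ITGA2B, GATA1, TAL1, FLI1 and ITGB3 averaged 11.7 TPM (ITGB3) to 190 TPM (ITGA2B) in control libraries, while PF4 and TUBB1, markers of mature megakaryocytes, averaged 0.0233 and 0.0333 TPM there. Of the 9 megakaryoblast markers 8 were tested: 4 rose and 1 fell with As2S2, and 5 rose and 1 fell with PMA, where fold changes ran from -1.05 (ITGA2B) to 5.53 (TUBB1). Of 17 markers of other cell types 11 were tested: 3 rose and 2 fell with As2S2, and 5 rose and 3 fell with PMA. The PMA fold changes of these 11 ran from -2.42 (CD79A) to 5.83 (COL1A1), both under 2 TPM in every group. The most abundant of them, the erythroid HBA1, averaged 517 TPM with As2S2, 283 TPM with PMA and 428 TPM in control. Of all genes tested, 20.3% rose and 19.6% fell with As2S2, and 30.8% rose and 31.1% fell with PMA. Those shares stand beside the counts of both marker sets, which are small. The part of these markers in the members' values was not tested. 2 libraries, As2S2 replicate 1 and control replicate 2, differed from the rest of their groups. Replicate pairs with 1 of them had a chi-square per gene of 12.5 to 15.9, and all remaining pairs had 2.46 to 3.55. Among the 78 members, control replicate 2 was the highest of the 3 control libraries for 62. As2S2 replicate 1 was the highest of its group for 32 and the lowest for 41. The same counts over all genes were not made. In bulk RNA, fewer cells of a type and less RNA per cell cannot be told apart.

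On the TPM scale, which divides by transcript length and allows levels of different genes to be compared, the median member stood at 45.5 TPM with As2S2, 41.7 TPM with PMA and 56.2 TPM in control. The range in control cells ran from 7.89 TPM for MRPL50 to 227 TPM for MRPL37. MRPL51, a large-subunit protein specific to mitochondria, had the highest mean level over all 9 libraries, at 217 ± 6.44 TPM with As2S2, 200 ± 3.37 TPM with PMA and 192 ± 10.9 TPM in control (SD, n = 3 each). MRPL37, also specific to mitochondria, had 216 ± 17.8 TPM with As2S2, 109 ± 3.79 TPM with PMA and 227 ± 15.8 TPM in control. MRPL33, MRPL21 and MRPL20, all of the bacterial type, completed the 5 highest by mean level and lay between 138 and 212 TPM in every group. The lowest were MRPL50, MRPL1, MRPS31, MRPL57 and MRPL19, which lay between 5.30 and 11 TPM in every group. Levels within the particle thus differed far more between genes than any 1 gene differed between treatments.

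Summed over members, the levels were 4526 ± 81.9 TPM with As2S2, 4224 ± 88.0 TPM with PMA and 5155 ± 181 TPM in control (SD, n = 3 each), and the libraries of each treatment all lay below the control libraries. TPM is a share of a library, and its centre moved too: the median over all genes tested was -0.11 on the log2 scale for As2S2 and -0.43 for PMA, against -0.24 and -0.31 over the members. Relative to the median gene, then, 54 of the 78 members lay lower with As2S2 and 48 of the 78 lay higher with PMA, whereas without that shift 66 and 63 lay lower. The direction of the PMA libraries therefore depends on what the members are set against. The comparisons that follow use counts per 1e6 counts of a library (CPM), with library sizes scaled by TMM, which places the median gene near 0.

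The small and the large subunit moved in parallel. Small-subunit members summed to 1338 ± 11.3 TPM with As2S2, 1229 ± 28.3 TPM with PMA and 1535 ± 49.7 TPM in control. Large-subunit members summed to 3188 ± 85.0 TPM with As2S2, 2995 ± 59.7 TPM with PMA and 3620 ± 134 TPM in control. The ratio of small to large was 0.435, 0.410 and 0.415 in the As2S2 libraries, 0.410, 0.409 and 0.412 in the PMA libraries and 0.423, 0.420 and 0.430 in the control libraries. The As2S2 and control libraries overlapped in this ratio. All PMA libraries lay below all control libraries, by 0.048 on the log2 scale (-0.048), and by -0.029 with the subunits assigned by structure.

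**Figure D1:**
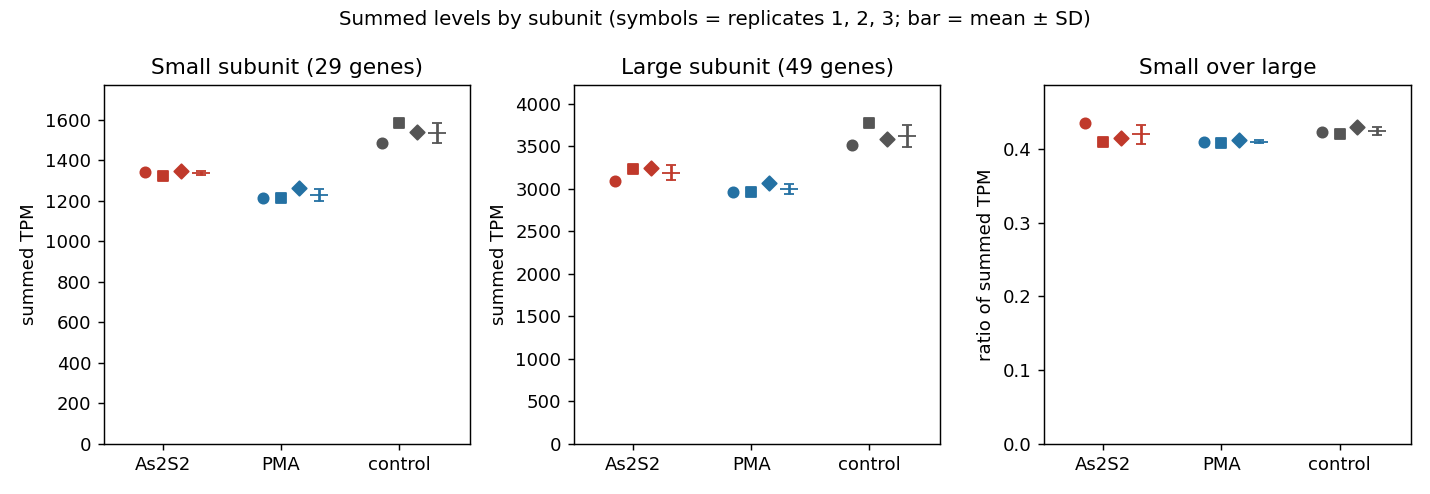
Summed TPM of the 29 small-subunit and the 49 large-subunit members, and the ratio of these sums, in each library (circle, square and diamond are replicates 1, 2 and 3; bars are mean ± SD). Both sums lie lower in As2S2 and PMA libraries than in control libraries, while the ratio stays between 0.409 and 0.435 in all 9.

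As2S2 libraries were first set against control. Of the 78 members, 21 fell, 7 rose and 50 did not pass the test (edgeR quasi-likelihood test, Benjamini-Hochberg adjusted p under 0.05 over all genes tested). Falls made up 26.9% of the members against 19.6% of all 14592 genes tested, and rises 8.97% against 20.3%. The median log2 fold change was -0.12 over the members and 0.00 over all genes. By subunit, 8 small-subunit members fell and 3 rose of 29 (median -0.09), and 13 large-subunit members fell and 4 rose of 49 (median -0.14). Among proteins specific to mitochondria 11 of 31 fell and 2 rose, and among those of the bacterial type 10 of 46 fell and 4 rose. Of the calls, 14 falls and 2 rises held in all 20 alternative settings tried, which include other tools, other scaling and each library left out. Without control replicate 2 the median of the members was -0.01, with 19 falls and 12 rises (24.4% and 15.4%, against 20.2% and 22.1% of all genes).

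MRPL24 (ENSG00000143314), the counterpart of a bacterial protein that binds the large rRNA early in assembly, had the lowest fold change. It stood at 28, 33.5 and 32.7 CPM in As2S2 libraries, against 62.2, 70.0 and 60.3 CPM in control libraries. All As2S2 libraries lay at about the same level and far below every control library, and the log2 fold change was -1.03 ± 0.09 (SE, adjusted p = 4.21e-07, edgeR). MRPL23 (ENSG00000214026), whose bacterial counterpart lines the exit of the peptide tunnel, stood at 28.7, 38.5 and 34.7 CPM with As2S2, against 51.1, 72.7 and 50.2 CPM in control. Its groups did not overlap, with control replicate 2 well above the other controls, and it fell by 0.77 on the log2 scale (-0.77 ± 0.13, adjusted p = 0.000285). MRPL23-AS1 overlaps its exons on the other strand, and the strand setting of the counting is not given in the sources used here.

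MRPS26 (ENSG00000125901), a small-subunit protein specific to mitochondria, stood at 17.3, 19.5 and 19.1 CPM with As2S2, against 26.2, 33.8 and 29.3 CPM in control (-0.67 ± 0.10, adjusted p = 9.86e-05). MRPL42 (ENSG00000198015), specific to mitochondria, stood at 46, 31.3 and 33.4 CPM with As2S2, against 57.9, 56.6 and 59.7 CPM in control (-0.66 ± 0.11, adjusted p = 0.000264). In MRPL42 it was As2S2 replicate 1 that lay apart, nearest to control, and no library crossed between the groups. The counts of MRPL42 were whole numbers in 3 of the 9 libraries, and it overlaps exons of RN7SL737P, so its values are less certain. MRPL40 stood at 11.4, 12.4 and 11.6 CPM with As2S2, against 17.7, 20.1 and 18 CPM in control (-0.65 ± 0.10, adjusted p = 0.000110). The other falls that held in all 20 settings were those of MRPL3, MRPL34, MRPL38, MRPS9, MRPS10, MRPS18B, MRPS21, MRPS23 and MRPS27, with fold changes from -0.27 for MRPS27 to -0.48 for MRPS9. MRPL3 is the counterpart of a bacterial protein that reaches towards the peptidyl transferase centre, and MRPS27 carries pentatricopeptide repeats. MRPL1 fell too (-0.44 ± 0.14, adjusted p = 0.0198), but its call was lost without As2S2 replicate 2 and without control replicate 1.

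MRPS18C (ENSG00000163319), the counterpart of a bacterial small-subunit protein, rose the most with As2S2. It stood at 92.6, 79.0 and 82.5 CPM in As2S2 libraries, against 61.1, 62.3 and 65 CPM in control libraries (0.43 ± 0.08, adjusted p = 0.000473). MRPL51 (ENSG00000111639) stood at 164, 170 and 176 CPM with As2S2, against 126, 148 and 140 CPM in control (0.30 ± 0.07, adjusted p = 0.00299). In neither gene did the groups overlap, and both calls held in all 20 settings. The counts of both were whole numbers in 0 of the 9 libraries, and each overlaps exons of a gene on the other strand, ABRAXAS1 for MRPS18C and NCAPD2 for MRPL51, so their values are less certain. The other rises were small: MRPL49 at 0.30, MRPL28 and MRPS11 at 0.28, MRPS36 at 0.25 and MRPL27 at 0.24. None of these 5 kept its call in more than 14 of the 20 settings. All of them lost it without control replicate 1, without control replicate 3 and with plain library totals.

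**Figure D2:**
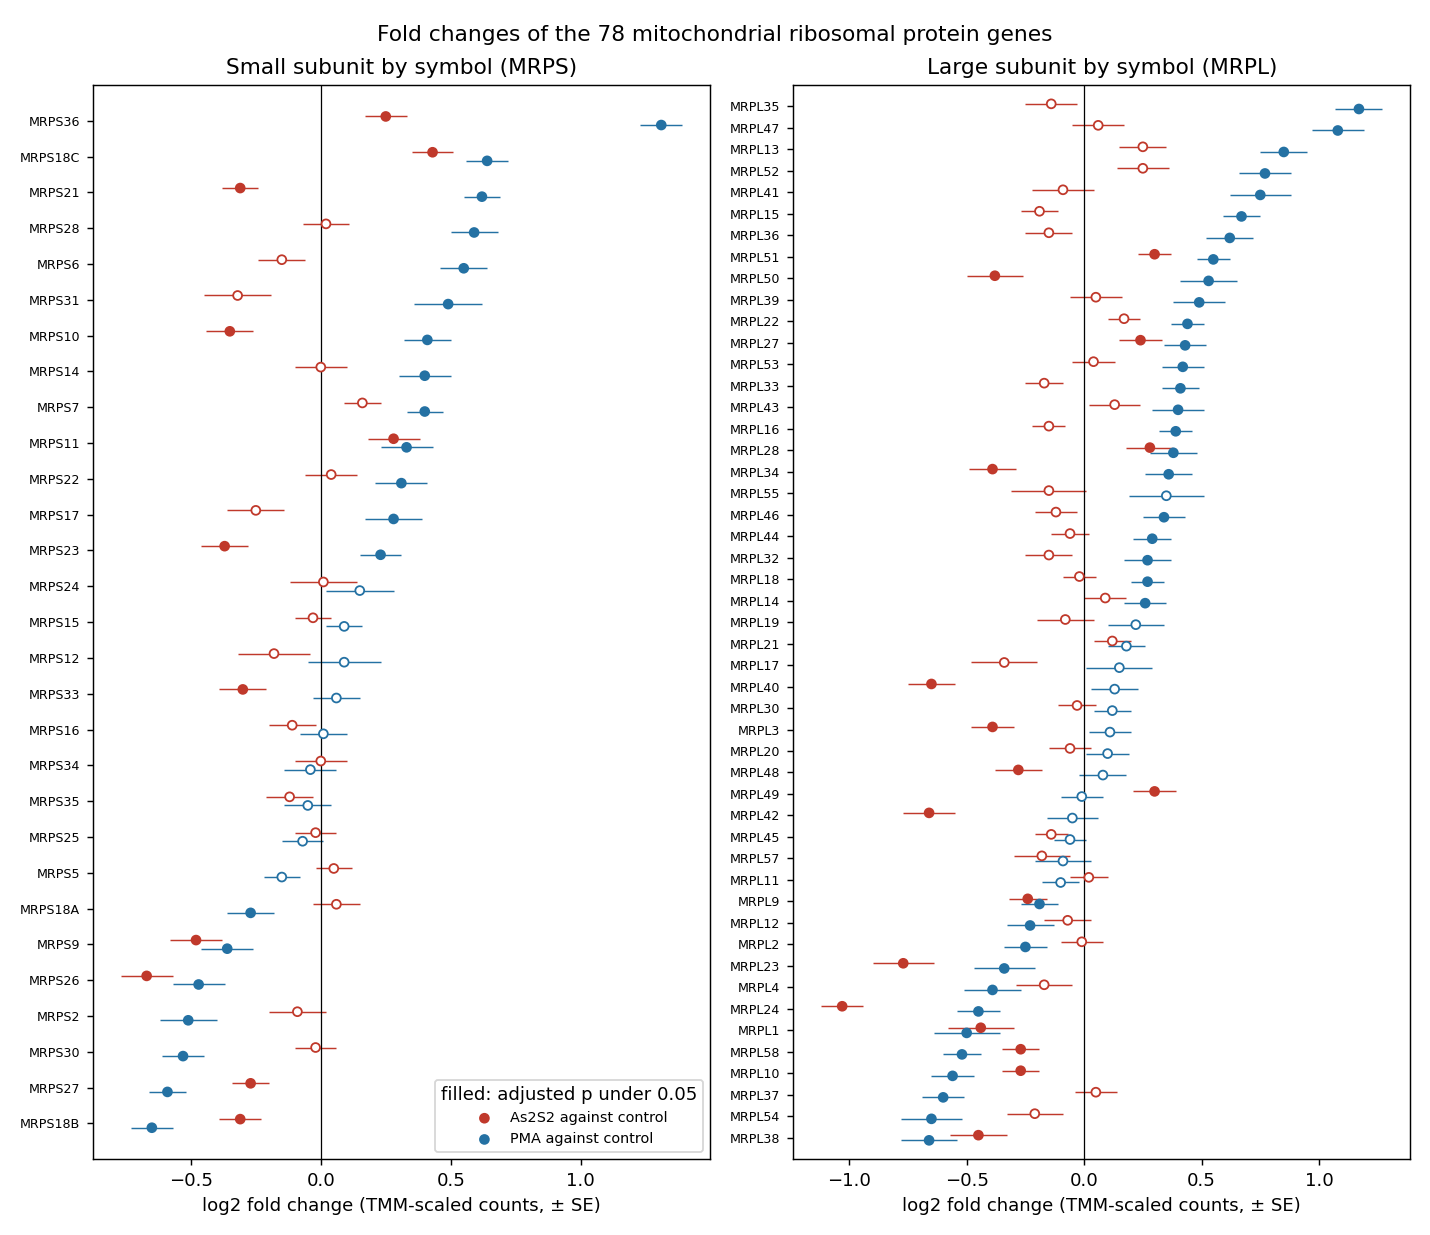
Log2 fold changes (± SE) of the 29 small-subunit and 49 large-subunit members for As2S2 against control (red) and PMA against control (blue), sorted by the PMA value, filled where the adjusted p was under 0.05. As2S2 values run from -1.03 (MRPL24) to 0.43 (MRPS18C) and PMA values from -0.66 (MRPL38) to 1.31 (MRPS36); both sets use the same control libraries, and many PMA values above 0 shrink or turn once the trend with transcript length is removed.

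PMA, the known inducer of megakaryocyte features in this line, was set against the same controls. With TMM scaling, 36 of the 78 members rose, 19 fell and 23 did not pass the test. Rises made up 46.2% of the members against 30.8% of all genes tested, and falls 24.4% against 31.1%. The median was 0.17 over the members and 0.01 over all genes. By subunit, 13 of 29 small-subunit members rose and 7 fell (median 0.09), and 23 of 49 large-subunit members rose and 12 fell (median 0.22). The order of these medians did not hold across settings. Without control replicate 2 they were 0.28 for the small and 0.29 for the large subunit. With the trend over transcript length removed, as described in the next paragraph, they were -0.05 and -0.10. Proteins of the bacterial type rose in 23 of 46 cases and fell in 10 (median 0.27), and those specific to mitochondria rose in 12 of 31 and fell in 9 (median -0.01). With the length trend removed the medians of these classes were -0.05 and -0.19.

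The rises followed a trend of the PMA libraries over transcript length. Effective lengths were worked out from the deposited counts and TPM, the genes were put into 5 bins of equal size, and 52 of the 78 members lay in bin 1, with the shortest transcripts. In that bin the median PMA fold change was 0.33 over all genes and 0.32 over the members, whereas in bin 5, with the longest transcripts, it was -0.34 over all genes. The As2S2 comparison had no such trend, with medians of 0.00 and -0.02 over all genes in bins 1 and 5. With a smooth length trend taken out of each library, 15 members rose and 30 fell with PMA. These made up 19.2% and 38.5% of the members, against 28.5% and 34.2% of all genes in that setting. Of the 36 rises 14 remained, and all 19 falls remained. MRPL33, the member with the shortest effective length among those that rose, then fell (-0.20, adjusted p = 0.0322, edgeR), against 0.41 ± 0.08 before. Plain library totals, which move the median of all genes to -0.255, gave 14 rises and 30 falls. These made up 17.9% and 38.5% of the members, against 20.3% and 44.4% of all genes, and the median of the members was -0.09. The all-gene shares with PMA in these settings apply to the lists below as well. Whether the trend belongs to the RNA of PMA-treated cells or to the libraries was not tested. In all, 11 rises and 13 falls held in all 20 settings.

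**Figure D3:**
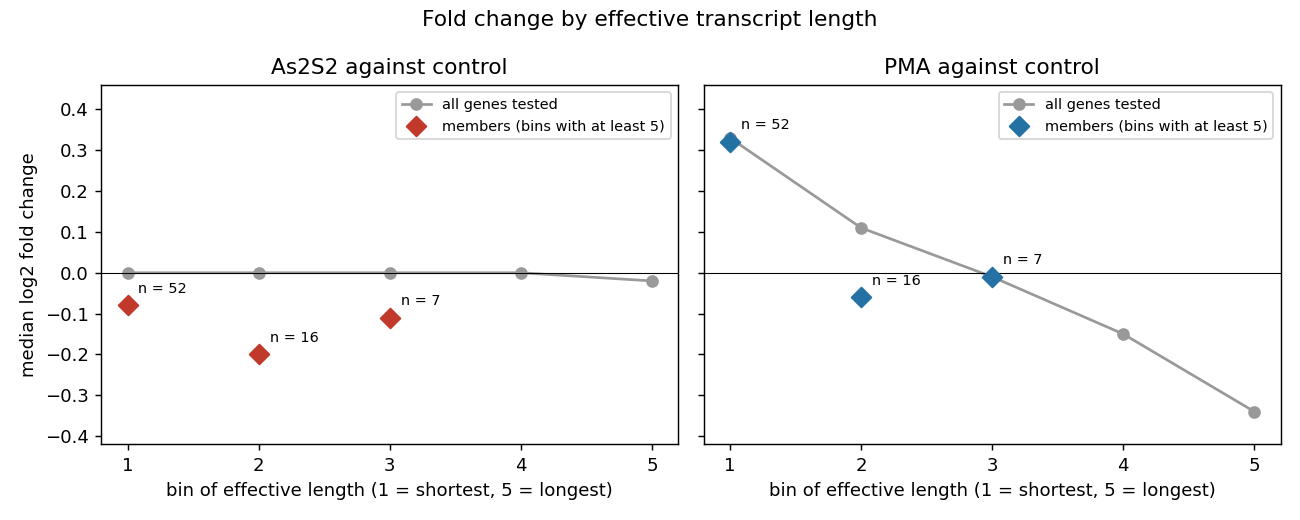
Median log2 fold change in 5 equal bins of genes by effective transcript length (1 = shortest) for As2S2 against control and PMA against control, over all genes tested (grey) and over members in bins that hold at least 5 of them (diamonds, n given). The PMA medians of all genes descend from 0.33 to -0.34, and the 52 members in bin 1 lie at 0.32; the As2S2 medians of all genes stay between -0.02 and 0.00.

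MRPS36 (ENSG00000134056), the 2-oxoglutarate dehydrogenase protein, had the highest PMA fold change of the 78. It stood at 95.8, 91.3 and 95.2 CPM in PMA libraries, against 35.7, 40.4 and 37.6 CPM in control libraries (1.31 ± 0.08, adjusted p = 8.06e-10, edgeR), and it kept 1.05 with the length trend removed. Among proteins of the ribosome itself, MRPL35 (ENSG00000132313), of the bacterial type, stood at 90.4, 91.3 and 90.3 CPM with PMA, against 38.4, 41.1 and 41.8 CPM in control (1.17 ± 0.10, adjusted p = 7.55e-08, 0.82 with the trend removed). MRPL47 (ENSG00000136522), whose bacterial counterpart sits at the tunnel exit, stood at 70.4, 68.9 and 66.1 CPM with PMA, against 33.2, 31.0 and 32.6 CPM in control (1.08 ± 0.11, adjusted p = 2.12e-07, 0.82 with the trend removed). In all 3 genes the PMA libraries were tight and lay far above every control library.

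MRPL13 (ENSG00000172172), of the bacterial type, stood at 104, 99.7 and 101 CPM with PMA, against 55.9, 56.4 and 57.1 CPM in control (0.85 ± 0.10, adjusted p = 1.57e-06). The other rises that held in all 20 settings were those of MRPL52 at 0.77, MRPL41 at 0.75, MRPL15 at 0.67, MRPS18C at 0.64, MRPS21 at 0.62, and MRPL51 and MRPS6 at 0.55. With the length trend removed these 7 lay between 0.16 for MRPL51 and 0.33 for MRPS18C and MRPS21. MRPS6 shares exon sequence with SLC5A3, so its counts are less certain. MRPL47 and MRPL13 overlap exons of ACTL6A and MTBP on the other strand, with whole counts in all 9 libraries.

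The falls with PMA included the most abundant member of control cells. MRPL37 (ENSG00000116221) stood at 241, 222 and 218 CPM in PMA libraries, against 320, 391 and 316 CPM in control libraries (-0.60 ± 0.09, adjusted p = 2.39e-05, edgeR). It overlaps exons of 3 genes on the other strand, with whole counts in all 9 libraries. MRPL38 (ENSG00000204316), which carries a domain like that of phosphatidylethanolamine-binding proteins, stood at 43.1, 42.2 and 45.8 CPM with PMA, against 60.9, 85.3 and 60.7 CPM in control (-0.66 ± 0.12, adjusted p = 0.000154). Its counts were whole numbers in 2 of the 9 libraries, and it overlaps exons of 2 other genes, so its values are less certain. MRPL54 stood at 24.1, 21 and 22.9 CPM with PMA, against 34.7, 42.5 and 29.5 CPM in control (-0.65 ± 0.13, adjusted p = 0.000289), and lay at -1.14 with the length trend removed, the lowest of all members there. No PMA library overlapped a control library in these 3 genes.

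Others that fell in all 20 settings have distinct roles. MRPL58, a peptidyl-tRNA hydrolase that rescues stalled mitochondrial ribosomes, fell to 35.2, 34.8 and 33.6 CPM in PMA libraries, against 47.5, 52.3 and 49 CPM in control (-0.52 ± 0.08, adjusted p = 3.26e-05). MRPL10, which anchors the stalk that recruits translation factors, lay at -0.56 ± 0.09, and its stalk partner MRPL12 lay at -0.23 ± 0.10 (adjusted p = 0.0432), a call lost with upper-quartile scaling, limma-voom and the stricter filter, and without PMA replicate 2, PMA replicate 3 or control replicate 2. MRPS27 lay at -0.59 ± 0.07, MRPS30 at -0.53 ± 0.08, MRPS2 at -0.51 ± 0.11 and MRPL1, of the stalk by which spent tRNA leaves, at -0.50 ± 0.14. MRPL24, MRPS26 and MRPS9, which fell with As2S2, also fell with PMA, at -0.45, -0.47 and -0.36. MRPL58, MRPL10, MRPS27 and MRPL1 likewise fell with As2S2, at -0.27, -0.27, -0.27 and -0.44. Among the members followed for their roles, MRPL11 of the stalk base (-0.10, adjusted p = 0.338), MRPS12 of the decoding centre (0.09, adjusted p = 0.605) and MRPS34 (-0.04, adjusted p = 0.751) did not pass. With the length trend removed MRPL11 (-0.30, adjusted p = 0.00132) and MRPS34 (-0.44, adjusted p = 0.000275) fell, as they did with plain library totals. MRPS7 (0.40), MRPL18 (0.27), MRPS22 (0.31) and MRPL44, an RNase III-like protein (0.29), rose with TMM scaling, and all 4 lost the call with the length trend removed and with plain library totals. The counts of MRPS22 and MRPS34 were whole numbers in 0 of the 9 libraries, so their values are less certain.

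**Figure D4:**
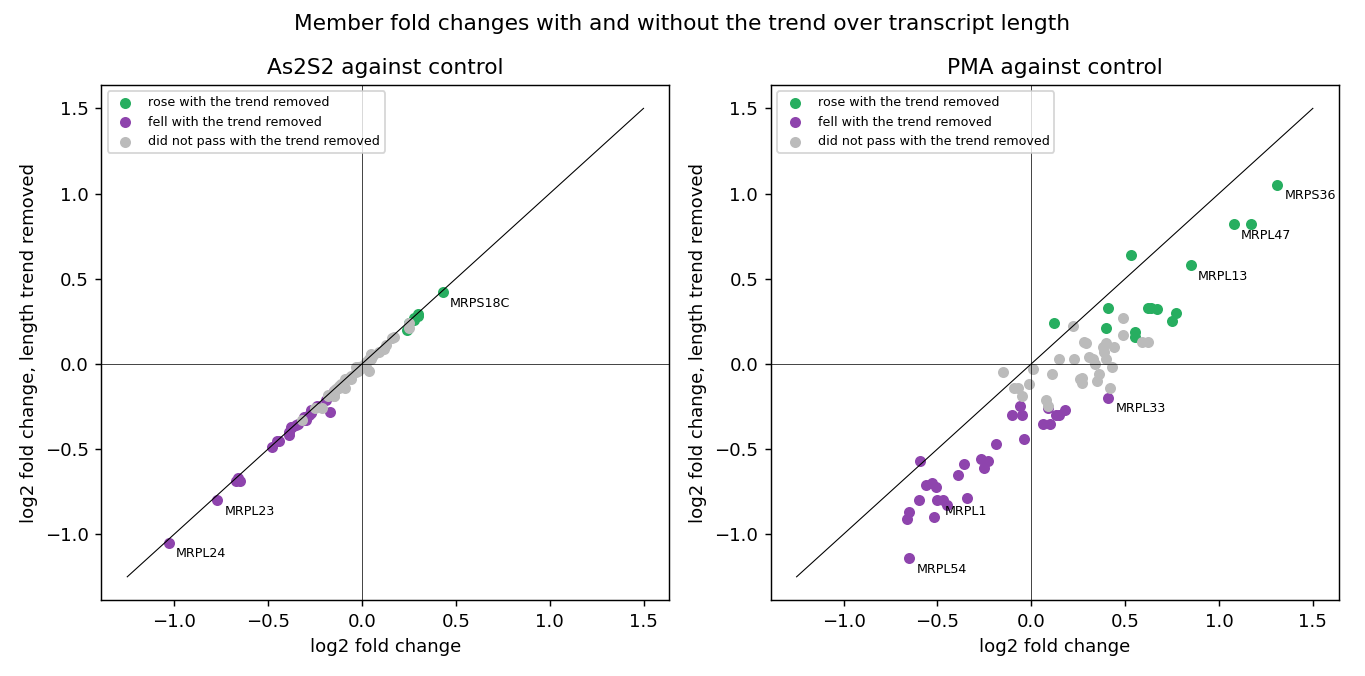
Log2 fold change of each member as fitted (x axis) and with the trend over transcript length removed (y axis), for As2S2 against control and PMA against control, coloured by the call with the trend removed. As2S2 points lie close to the diagonal, and most PMA points lie below it. With PMA, 15 members lie above 0 with a call (green) and 30 below 0 with a call (purple). These are 19.2% and 38.5% of the members, against 28.5% and 34.2% of all genes.

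The comparisons of As2S2 and of PMA with control share their control libraries, so values are given side by side. MRPS10, MRPS21, MRPS23, MRPL34 and MRPL50 fell with As2S2 and rose with PMA. MRPS21 (ENSG00000266472), of the bacterial type, stood at 68.4, 63.4 and 65.2 CPM with As2S2, at 129, 124 and 123 CPM with PMA and at 82.2, 79.4 and 82.9 CPM in control. All 3 groups were separate, with fold changes of -0.31 ± 0.07 for As2S2 (adjusted p = 0.00182, edgeR) and 0.62 ± 0.07 for PMA (adjusted p = 6.91e-07), and both calls held in all 20 settings. MRPS10 lay at -0.35 and 0.41, MRPL34 at -0.39 and 0.36, MRPL50 at -0.38 and 0.53, and MRPS23 at -0.37 and 0.23, for As2S2 and PMA. The MRPS23 rise with PMA was kept in 12 of the 20 settings and was lost without any 1 of the PMA libraries. The MRPL50 fall with As2S2 was kept in 17, and As2S2 replicate 1 (27.5 CPM) lay above control replicate 1 (27.1 CPM). With the length trend removed, PMA values were 0.33 for MRPS10 and 0.64 for MRPL50, both still past the threshold, and -0.06 for MRPL34 and 0.03 for MRPS23, both no longer past it. With plain library totals MRPS10, MRPL50, MRPL34 and MRPS23 all lost the rise with PMA.

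As2S2 was also set directly against PMA. Of the 78 members, 42 were lower with As2S2, 12 were higher and 24 did not pass. Lower members made up 53.8% against 30.6% of all genes tested, and higher ones 15.4% against 30.9%. This split depended on the same length trend: with it removed, 25 were lower and 23 higher, with a median of 0.04 in place of -0.26. In that setting 32.1% of members were lower and 29.5% higher, against 28.7% and 33.4% of all genes. The median of all genes was then 0.047. The lower calls that held in all 20 settings numbered 22 and were led by MRPL35 (-1.30 ± 0.11, adjusted p = 2.47e-08), MRPS36 (-1.07 ± 0.08, adjusted p = 1.08e-08) and MRPL47 (-1.03 ± 0.11, adjusted p = 4.43e-07). MRPS21 (-0.93), MRPL50 (-0.91), MRPL15 (-0.86), MRPL41 (-0.84) and MRPS31 (-0.81) followed and held as well. The higher calls that held numbered 9, with MRPL37 (0.65 ± 0.09, adjusted p = 1.05e-05), MRPS30 (0.51 ± 0.08), MRPL54 (0.44 ± 0.13), MRPS2 (0.42 ± 0.11), MRPS18B (0.34 ± 0.08), MRPS18A (0.33 ± 0.09), MRPS27 (0.32 ± 0.07), MRPL49 (0.31 ± 0.09) and MRPL10 (0.29 ± 0.09).

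**Figure D5:**
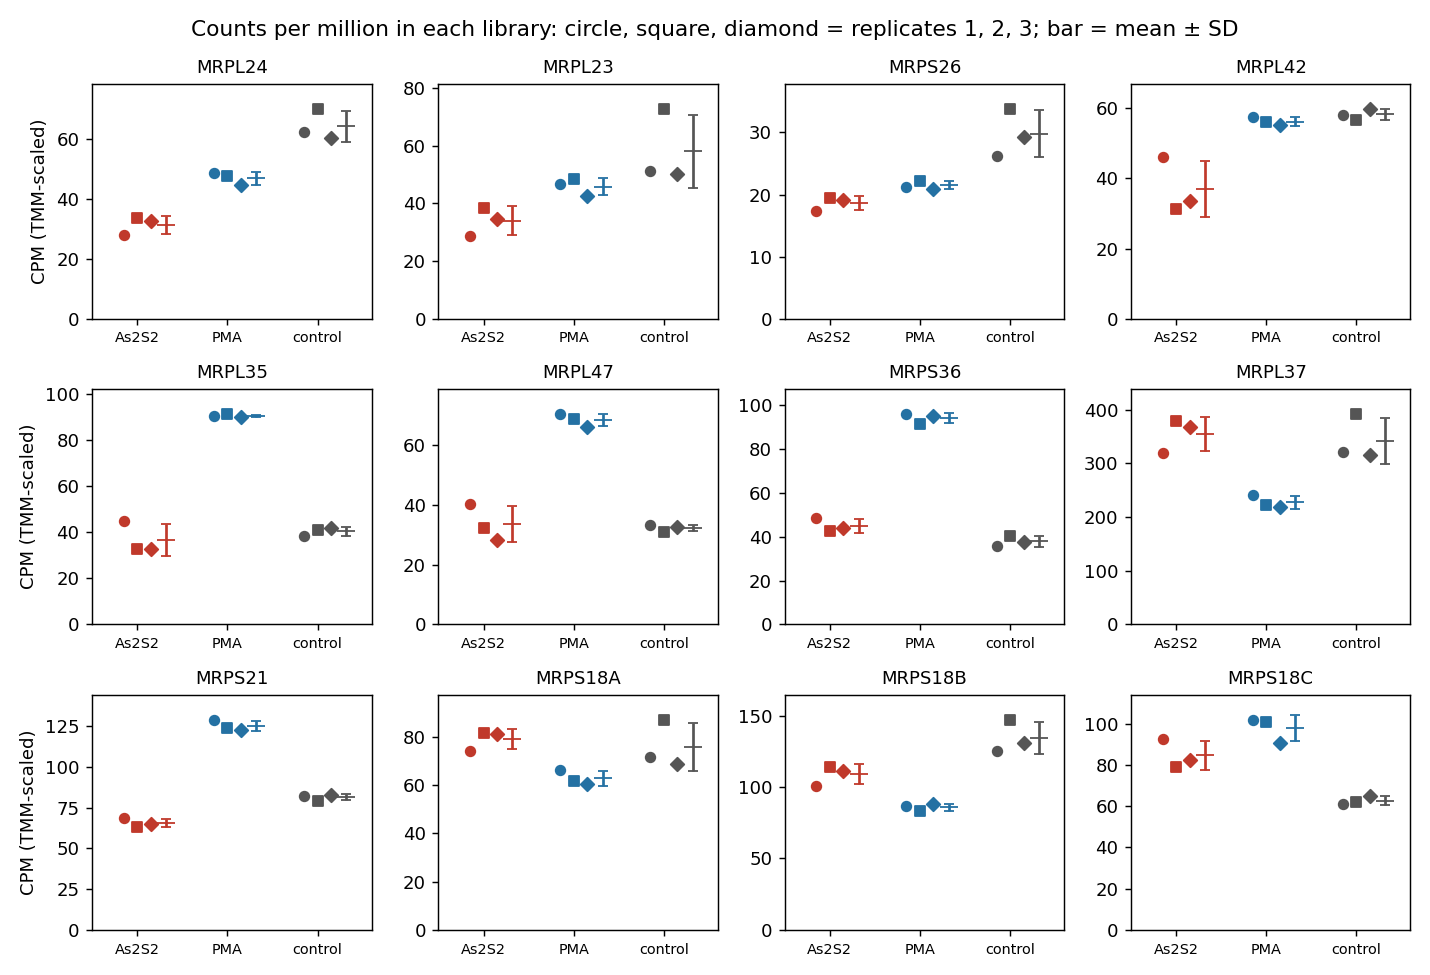
TMM-scaled CPM of 12 members in each library (circle, square and diamond are replicates 1, 2 and 3; bars are mean ± SD), with axes from 0. MRPL24, MRPL23 and MRPS26 are lowest with As2S2, MRPL35, MRPL47 and MRPS36 are highest with PMA, and MRPL37 is lowest with PMA. MRPS18B is highest and MRPS18C lowest in control, while the As2S2 and control libraries of MRPS18A overlap.

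The MRPS18 genes are 3 relatives of a single bacterial small-subunit protein, and their calls differed, that of MRPS18A being the least settled. MRPS18C rose with both treatments, at 102, 101 and 90.9 CPM with PMA beside the As2S2 and control values given above (0.64 ± 0.08, adjusted p = 3.15e-06, edgeR). MRPS18B (ENSG00000204568) fell with both, at 101, 114 and 111 CPM with As2S2 and 86.4, 83.3 and 87.8 CPM with PMA, against 125, 147 and 131 CPM in control (-0.31 ± 0.08 and -0.65 ± 0.08, adjusted p = 0.00480 and 2.19e-06 for As2S2 and PMA). MRPS18A (ENSG00000096080), the relative in the large subunit, stood at 74.0, 81.5 and 81.2 CPM with As2S2 and 66.2, 61.6 and 60.3 CPM with PMA, against 71.4, 86.9 and 68.5 CPM in control. Its counts were whole numbers in 0 of the 9 libraries, and it overlaps exons of RSPH9 on the other strand, so its values are less certain. Its As2S2 libraries overlapped control (0.06, adjusted p = 0.623). Its fall with PMA (-0.27 ± 0.09, adjusted p = 0.0171) was lost without PMA replicate 2, without PMA replicate 3 and without control replicate 2.

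Promoters of members with contrasting courses are printed to show how far their sequences differ: the MRPS18 relatives, MRPL47 as a gene that rose with PMA, MRPL37 as one that fell with it, and MRPL24 as the lowest with As2S2. Each runs 5′ to 3′ on the strand of the gene from 250 bases before to 50 bases after the first start listed by RefSeq (GRCh38.p14). Capitals mark matches, on either strand, to motifs tied to mitochondrial or growth genes: CCGGAAG (ETS family, which includes the nuclear respiratory factor GABPA), AAGATGGCG (YY1), GCGCATGCG (NRF1) and CACGTG (the E-box bound by MYC). No motif is contained in another, and no matches overlap in the sequences printed.
MRPS18A promoter, chr6:43687742-43688041, minus strand: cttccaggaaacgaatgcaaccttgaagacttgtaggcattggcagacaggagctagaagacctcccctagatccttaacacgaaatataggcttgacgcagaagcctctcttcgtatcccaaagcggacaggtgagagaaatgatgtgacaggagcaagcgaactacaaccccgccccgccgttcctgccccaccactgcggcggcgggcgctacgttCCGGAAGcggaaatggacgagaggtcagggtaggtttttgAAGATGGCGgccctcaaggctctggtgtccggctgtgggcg
MRPS18B promoter, chr6:30617590-30617889, plus strand: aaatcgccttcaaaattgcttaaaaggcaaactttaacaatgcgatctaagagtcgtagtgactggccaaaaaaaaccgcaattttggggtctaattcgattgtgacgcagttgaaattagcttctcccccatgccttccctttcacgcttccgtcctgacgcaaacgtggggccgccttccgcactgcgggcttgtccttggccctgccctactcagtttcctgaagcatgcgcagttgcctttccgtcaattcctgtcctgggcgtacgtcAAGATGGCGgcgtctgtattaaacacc
MRPS18C promoter, chr4:83455808-83456107, plus strand: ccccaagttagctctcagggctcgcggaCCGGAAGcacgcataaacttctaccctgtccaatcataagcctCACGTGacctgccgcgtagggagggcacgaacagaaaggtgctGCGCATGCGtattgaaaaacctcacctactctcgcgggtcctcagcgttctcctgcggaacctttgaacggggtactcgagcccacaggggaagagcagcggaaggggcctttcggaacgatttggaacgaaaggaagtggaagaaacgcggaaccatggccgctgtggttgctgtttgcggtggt
MRPL47 promoter, chr3:179604589-179604888, minus strand: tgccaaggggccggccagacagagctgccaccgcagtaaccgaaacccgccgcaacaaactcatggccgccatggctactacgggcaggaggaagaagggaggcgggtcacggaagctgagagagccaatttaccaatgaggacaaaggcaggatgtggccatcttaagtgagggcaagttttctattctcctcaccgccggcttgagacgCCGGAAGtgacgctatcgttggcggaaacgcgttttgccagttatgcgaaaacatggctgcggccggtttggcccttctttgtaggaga
MRPL37 promoter, chr1:54199917-54200216, plus strand: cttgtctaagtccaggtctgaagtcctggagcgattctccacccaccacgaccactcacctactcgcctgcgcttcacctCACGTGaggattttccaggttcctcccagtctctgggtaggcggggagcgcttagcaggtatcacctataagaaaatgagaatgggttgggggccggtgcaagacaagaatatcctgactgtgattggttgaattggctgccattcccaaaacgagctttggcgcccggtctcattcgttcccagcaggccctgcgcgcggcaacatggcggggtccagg
MRPL24 promoter, chr1:156741039-156741338, minus strand: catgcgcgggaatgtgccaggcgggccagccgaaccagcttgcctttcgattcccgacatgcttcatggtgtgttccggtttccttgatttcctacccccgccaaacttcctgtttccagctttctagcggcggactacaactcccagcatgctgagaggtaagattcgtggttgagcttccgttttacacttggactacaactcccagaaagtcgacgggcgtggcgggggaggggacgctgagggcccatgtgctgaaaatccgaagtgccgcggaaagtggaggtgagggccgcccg

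The MRPS18A window holds an ETS and a YY1 match, that of MRPS18B a YY1 match, and that of MRPS18C an ETS, an E-box and an NRF1 match. MRPL47 has an ETS match, MRPL37 an E-box match and MRPL24 no match in these letters. Promoters were listed for 69 of the 78 members. The ETS motif occurred in 29 of them (42%), against 19.7% of the 10669 promoters of genes tested and 10.7% of all 27305 listed. The YY1 motif occurred in 13 (18.8%), against 3.93% of tested genes and 1.85% of all. The NRF1 motif occurred in 3 (4.35% against 3.73% of tested genes and 2.10% of all), and the E-box in 6 (8.70% against 10.2% and 7.43%). ETS or YY1 matches together stood in 38 members (55.1% against 22.7% of tested genes), both of them in MRPL38, MRPL52, MRPS10 and MRPS18A. By the PMA call, the ETS motif stood in 15 of 31 members that rose, 5 of 16 that fell and 9 of 22 that did not pass. A match is a description of these letters and shows no binding.

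Proteins of the mitochondrial ribosome with other names were read beside the members. DAP3, a GTP-binding small-subunit protein, and PTCD3, a pentatricopeptide repeat protein, passed in neither comparison with control. CHCHD1 rose with PMA (0.90 ± 0.09, adjusted p = 2.47e-07, edgeR) in all 20 settings, with an As2S2 value of -0.01. AURKAIP1 rose with PMA (0.53 ± 0.11, adjusted p = 0.000680), a call lost with the length trend removed. GADD45GIP1, a large-subunit protein, fell with As2S2 (-0.38 ± 0.11, adjusted p = 0.0109) in all 20 settings.

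The rRNAs of the particle were read from the same libraries, in which RNA had been selected by its poly(A) tail. MT-RNR1, the small-subunit rRNA, fell with As2S2 (-0.42 ± 0.07, adjusted p = 0.000318) and rose with PMA (1.26 ± 0.07, adjusted p = 4.30e-10). MT-RNR2, the large-subunit rRNA, lay at -0.16 ± 0.10 with As2S2 (adjusted p = 0.217) and rose with PMA (0.65 ± 0.10, adjusted p = 2.47e-05). Together they took 1.65%, 1.29% and 1.25% of counts in the As2S2 libraries, 2.48%, 2.43% and 2.38% in the PMA libraries and 1.85%, 1.56% and 1.69% in the control libraries. The PMA libraries were thus all above control, and As2S2 libraries overlapped it. Of the 13 mRNAs translated by the particle, 6 rose and 2 fell with As2S2, and 11 rose with PMA by the edgeR test. Rises made up 46.2% with As2S2 and 84.6% with PMA, against 20.3% and 30.8% of all genes tested. With the length trend removed 7 rose and 3 fell with PMA (53.8% and 23.1%). With plain library totals 8 rose and 1 fell (61.5% and 7.69%, against 20.3% and 44.4% of all genes).

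Of 29 assembly factors, 3 rose and 10 fell with As2S2 (10.3% and 34.5%, against 20.3% and 19.6% of all genes tested; median -0.15). With plain library totals these were 1 and 14 (3.45% and 48.3%, against 15.7% and 24.2% of all genes). With PMA, 8 rose and 10 fell (27.6% and 34.5%, near the 30.8% and 31.1% of all genes; median -0.06), with 5 and 13 once the length trend was removed and 1 and 17 with plain library totals. MTG1, a GTPase of large-subunit assembly, fell with both, at -1.03 ± 0.12 for As2S2 and -1.26 ± 0.12 for PMA (adjusted p = 5.19e-06 and 1.57e-07, edgeR). MRM1, which methylates the large rRNA, fell with both as well, at -1.27 ± 0.21 and -1.37 ± 0.21. TFB1M, which methylates the small rRNA, fell with As2S2 (-0.79 ± 0.12) and lay at 0.08 with PMA (adjusted p = 0.551). RPUSD4, which forms pseudouridine in the large rRNA, lay at -0.04 with As2S2 (adjusted p = 0.699) and fell with PMA (-0.85 ± 0.08, adjusted p = 1.44e-07). RBFA, a small-subunit maturation factor, fell by 0.42 with As2S2 and by 0.75 with PMA on the log2 scale. Every call named here, up to RBFA, held in all 20 settings. NGRN and MTERF3 were lower with As2S2 than with PMA, by -0.55 ± 0.08 and -1.06 ± 0.15.

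Of 15 translation factors and mRNA partners, 1 rose and 5 fell with As2S2 (6.67% and 33.3%, against 20.3% and 19.6% of all genes tested). With PMA, 7 rose and 5 fell (46.7% and 33.3%, against 30.8% and 31.1%), with 4 and 7 once the length trend was removed and 2 and 7 with plain library totals. MTIF2, the initiation factor that brings the first tRNA to the small subunit, fell with both, at -1.08 ± 0.17 for As2S2 and -1.74 ± 0.18 for PMA (adjusted p = 0.000108 and 4.06e-07, edgeR). GUF1, an elongation factor, fell with both as well, at -0.87 ± 0.14 and -0.81 ± 0.14. OXA1L, which inserts new proteins into the inner membrane, rose with both, at 0.31 ± 0.07 and 0.67 ± 0.07. LRPPRC and SLIRP form a complex that stabilises mitochondrial mRNAs. LRPPRC fell with PMA (-1.41 ± 0.10, adjusted p = 7.63e-09) in all 20 settings, and SLIRP, with a short transcript, rose (0.72 ± 0.08, adjusted p = 4.61e-07) but lay at 0.07 with the length trend removed. MTIF3, another initiation factor, fell with As2S2 (-0.65 ± 0.17) and rose with PMA (0.59 ± 0.16), the rise being lost with the length trend removed.

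Of 14 regulators of mitochondrial biogenesis tested, 8 fell with As2S2 (57.1%, against 19.6% of all genes tested). Without control replicate 2, 1 rose and 5 fell (7.14% and 35.7%, against 22.1% and 20.2% of all genes). With PMA, 2 rose and 6 fell (14.3% and 42.9%, against 30.8% and 31.1%), with 2 and 4 once the length trend was removed and 1 and 8 with plain library totals. MYC fell with both, at -1.34 ± 0.07 for As2S2 and -1.76 ± 0.07 for PMA (adjusted p = 1.21e-09 and 4.12e-12, edgeR). TWNK, the mitochondrial DNA helicase, fell by 0.40 with As2S2 and by 0.71 with PMA on the log2 scale. PPRC1, a coactivator of nuclear respiratory genes, fell with PMA (-1.18 ± 0.09), and its As2S2 call (-0.24 ± 0.09, adjusted p = 0.0358) was lost in 9 of 20 settings. TFB2M, a mitochondrial transcription factor, fell with As2S2 (-0.56 ± 0.11) and rose with PMA (0.54 ± 0.11), in all 20 settings.

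The 79 cytosolic ribosomal protein genes, whose transcripts are short as well, gave a yardstick. With As2S2, 6 rose and 9 fell (7.59% and 11.4%, against 20.3% and 19.6% of all genes tested; median 0.04). Without control replicate 2 the rises numbered 24 and the falls 8 (30.4% and 10.1%, against 22.1% and 20.2% of all genes). With As2S2 replicate 1 also left out they numbered 37 and 18 (46.8% and 22.8%, against 25.4% and 24.8%). RPS26 (0.41 ± 0.07), RPL5 (-0.38 ± 0.08) and RPS6 (-0.31 ± 0.08) had the smallest adjusted p there. With PMA, 65 rose and 1 fell (82.3% and 1.27%, against 30.8% and 31.1% of all genes tested; median 0.46). The smallest adjusted p was in RPL36A (0.91), RPL39 (0.83) and RPS25 (0.88). With the length trend removed 24 rose and 23 fell (median -0.03). That was 30.4% and 29.1%, against 28.5% and 34.2% of all genes. With plain library totals 45 rose and 12 fell (57% and 15.2%, against 20.3% and 44.4% of all genes).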

How the data were processed

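RNA was measured by poly(A)-selected sequencing in 9 libraries of MEG-01 cells, grouped by the sample labels. Per the file headers, each of the 2 tables that the authors deposited, 1 per treatment beside control, gives estimated counts without normalization and TPM values. The deposited tables also hold the authors' log2 fold change and p-value columns, which were not used. Per the submitters' processing notes, fastp 0.22.0 and DESeq2 were used. The gene IDs in the files are human, although the notes name zebrafish builds and the organism given for 1 control sample is not human. Not given in the sources used here are the aligner, the counter, its annotation and its strand setting. Control columns were identical in the tables (0 differing values). Whole numbers made up 89.91% to 91.42% of each library's counts, and the remaining values were rounded before testing. Of the members, 36 held whole counts in all 9 libraries and 11 in 0. By the GENCODE 29 annotation 41 members share exon positions with another gene, 29 of them with one on the other strand. Symbols were found for 62666 of the IDs.

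Genes were kept by the filterByExpr rule, which left 14592 of 63241, with TMM factors for library size. A single fit held all 9 libraries by group, and contrasts were tested by the edgeR 4.0.16 quasi-likelihood F-test (R 4.3.3). P-values were adjusted by Benjamini-Hochberg over all genes tested and a threshold of 0.05. Fold changes carry the SE of the fit and levels the SD over 3 libraries. Effective length, relative to other genes, came from the ratio of counts to TPM, and a natural spline of log2 CPM over it was removed from each library in the length setting.

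The 20 settings that calls were held against were DESeq2 1.42.0, limma-voom 3.58.1, scaling by RLE or by the upper quartile, no filter, a stricter filter (a mean of 1 CPM, and 10 counts throughout at least 1 group), the replicate number as a block, the length trend removed, each of the 9 libraries left out, control replicate 2 and As2S2 replicate 1 both left out, only the groups compared, and plain library totals. The last was chosen after seeing the data. A threshold of 0.01 was also tried. The members, gene lists and tests were chosen with earlier results of these data known. Named members were the 8 highest and 8 lowest called in each contrast, those called in opposite directions, the 5 highest and 5 lowest by mean TPM and a fixed set; of the other lists, those with the smallest adjusted p. Promoter sequences are from RefSeq (GRCh38.p14); none was listed for 9 members, and GTPBP6 was left out of the assembly factors because its symbol belongs to more than 1 ID.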

Additional observations from a re-analysis of the deposited data

How the results depend on the processing

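The counts of members that rose or fell stayed within 1.5 times their reported values with RLE and upper-quartile scaling, DESeq2, limma-voom and either filter. Removing the length trend gave 15 rises and 30 falls for PMA against control (19.2% and 38.5%, against 28.5% and 34.2% of all genes). For As2S2 against PMA it gave 23 and 25 (29.5% and 32.1%, against 33.4% and 28.7%). Plain library totals gave 2 rises for As2S2 against control (2.56%, against 15.7% of all genes). For PMA against control they gave 14 rises and 30 falls (17.9% and 38.5%, against 20.3% and 44.4%). For As2S2 against PMA they gave 27 falls (34.6%, against 23.3%). As2S2 against control was the least settled in its rises, with 20 when control replicate 2 and As2S2 replicate 1 were both left out. These 20 made up 25.6% of the members, against 25.4% of all genes in that setting. The rises numbered 2 when only the groups compared were fitted and 2 at a threshold of 0.01. Principal components were taken over all 9 libraries. On the third, the As2S2 libraries kept when those 2 were left out lay at -7.8 and -10.8, and the control libraries kept at 17 and 10.1. Among the libraries kept, this component and the As2S2 treatment cannot be told apart. Over the settings with 1 library left out, As2S2 against control gave 2 to 12 rises and 16 to 26 falls, PMA against control 32 to 41 and 13 to 20, and As2S2 against PMA 9 to 15 and 38 to 44. For As2S2 rises, these were 4 without As2S2 replicate 2 or 3, 2 without control replicate 1 or 3 and 12 without control replicate 2. The change of the small over large log2 ratio with PMA was -0.048 by symbol and -0.029 by structure.

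Some members changed sign. With the length trend removed, PMA against control gave -0.02 for MRPL27, -0.30 for MRPL40, -0.06 for MRPL34, -0.20 for MRPL33, -0.27 for MRPL21, -0.35 for MRPL20 and -0.08 for MRPL18. As2S2 against PMA then gave 0.09 for MRPS18C, 0.12 for MRPL51, 0.23 for MRPS11, 0.22 for MRPL27, 0.36 for MRPL21, 0.25 for MRPL20, 0.04 for MRPL18 and 0.03 for MRPS7. With both libraries out, As2S2 against control gave 0.16 for MRPS2, 0.20 for MRPS34, -0.14 for MRPS22 and 0.13 for MRPL12. With plain library totals, MRPS23 lay at -0.03 for PMA. Beyond the trend removed and the samples or factors dropped, the cause was not tested.

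No pairing by replicate number was seen: same-number deviations correlated between -0.073 and 0.149, and 3 of 9 libraries correlated best with their own number. The libraries that lay apart, As2S2 replicate 1 and control replicate 2, differ in number, and their deviations correlated at -0.215. With 3 libraries per group the check cannot show that the samples were unpaired. The fit with the replicate number as a block gave 9 rises and 23 falls for As2S2, 38 and 18 for PMA, and 12 and 42 for As2S2 against PMA.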
